A study of Mus musculus with 9 samples.

Results

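The Hippo pathway genes described here are the coactivators Yap1 and Wwtr1, the 4 DNA-binding partners Tead1, Tead2, Tead3 and Tead4, and 4 genes known as transcriptional targets, Ccn1, Ccn2, Ankrd1 and Amotl2. They were taken by gene symbol, and all 10 had a row in both of the authors' deposited tables, out of 57010 Ensembl gene rows in each. Their identifiers there are ENSMUSG00000053110 (Yap1), ENSMUSG00000027803 (Wwtr1), ENSMUSG00000055320 (Tead1), ENSMUSG00000030796 (Tead2), ENSMUSG00000002249 (Tead3), ENSMUSG00000030353 (Tead4), ENSMUSG00000028195 (Ccn1), ENSMUSG00000019997 (Ccn2), ENSMUSG00000024803 (Ankrd1) and ENSMUSG00000032531 (Amotl2). The RNA came from mouse samples that the series' design text calls organoids, that is, cells cultured into small tissue-like bodies. Normal was 3 libraries of organoids labelled normal lung, SCLC was 3 libraries of organoids of small cell lung cancer, and GSK was 3 libraries of SCLC organoids that had received an agent named only as GSK. The sources used here do not give strain, genotype, sex, age, the genetic driver of the tumours, the number of animals or clones behind the libraries, or the identity, dose and time of GSK. Nothing in the labels says whether libraries of a group came from separate cultures, so the p-values measure only the spread between these libraries, which may be technical.

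The Hippo pathway is a kinase cascade. Its kinases, encoded by Stk3, Stk4, Lats1 and Lats2, phosphorylate the coactivator proteins YAP (Yap1) and TAZ (Wwtr1) and keep them out of the nucleus or mark them for degradation. When the cascade is off, YAP and TAZ enter the nucleus, bind TEAD factors and raise transcription of genes such as Ccn1 and Ccn2, which encode secreted matrix-associated proteins. In lung, YAP and TAZ act in epithelial repair and in alveolar type I cells, and low YAP1 is known for the neuroendocrine forms of small cell lung cancer. RNA levels do not show phosphorylation or the place of a protein in the cell.

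TEAD factors bind the letters GGAATG, the core of the M-CAT element. The stretches of 250 bases upstream of the annotated starts of Wwtr1, Ccn1 and Amotl2, members that rose with GSK, and of Ankrd1, a target that stayed near 0 normalized counts, are shown because each holds these letters. The sequences are RefSeq's on build GRCm38.p6, on the strand of the gene and 5′ to 3′, and capitals mark GGAATG or its reverse complement CATTCC. The reads were aligned to GRCm39, so these positions are not positions in the authors' files. Wwtr1 lies at chr3:57575911-57576160 on the minus strand, the first of its 2 windows. Ccn1 lies at chr3:145649986-145650235 on the minus strand, Amotl2 at chr9:102717554-102717803 on the plus strand and Ankrd1 at chr19:36119845-36120094 on the minus strand.
Wwtr1: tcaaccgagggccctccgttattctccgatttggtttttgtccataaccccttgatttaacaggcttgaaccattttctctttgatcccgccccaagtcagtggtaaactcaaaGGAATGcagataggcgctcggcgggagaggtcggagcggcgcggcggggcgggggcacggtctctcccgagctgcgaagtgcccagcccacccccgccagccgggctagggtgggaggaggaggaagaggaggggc
Ccn1: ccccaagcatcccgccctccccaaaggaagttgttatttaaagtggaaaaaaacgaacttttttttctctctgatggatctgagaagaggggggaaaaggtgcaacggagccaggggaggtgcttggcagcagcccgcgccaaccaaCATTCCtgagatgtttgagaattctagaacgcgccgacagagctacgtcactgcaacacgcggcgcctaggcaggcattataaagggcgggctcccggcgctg
Amotl2: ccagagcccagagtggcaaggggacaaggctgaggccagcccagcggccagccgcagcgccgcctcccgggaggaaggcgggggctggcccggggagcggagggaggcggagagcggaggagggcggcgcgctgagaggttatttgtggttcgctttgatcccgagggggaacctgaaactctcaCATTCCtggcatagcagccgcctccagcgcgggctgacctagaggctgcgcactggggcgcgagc
Ankrd1: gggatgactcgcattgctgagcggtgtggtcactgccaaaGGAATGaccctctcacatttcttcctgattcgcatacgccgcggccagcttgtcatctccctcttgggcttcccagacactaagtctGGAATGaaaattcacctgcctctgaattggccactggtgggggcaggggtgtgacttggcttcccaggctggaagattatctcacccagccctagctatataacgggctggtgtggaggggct

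Of the 10 members, 7 had a window in the RefSeq table (all but Tead1, Tead4 and Ccn2), and 6 of these (Yap1, Wwtr1, Tead3, Ccn1, Ankrd1 and Amotl2) held GGAATG on either strand in at least 1 window. Over all 27025 genes of that table, 14.4% held it, and 12.6% of all 32851 windows did. The match in Ccn1 began 103 bases before the start, that in Amotl2 65 bases before, that in Wwtr1 136 bases before, and Ankrd1 had 2 matches, 210 and 123 bases before. The AP-1 letters TGANTCA, which were searched on both strands, were in 0 of the 7 members with a window, so no such match overlapped GGAATG, and in 7.82% of all genes. A match describes these letters only.

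The values are the authors' comparisons of 3 libraries against 3. Each gene has a mean over 6 libraries in normalized counts, a log2 fold change with its standard error, and an adjusted p, and no column holds a single library. Group means given here are therefore those implied by the mean and the fold change, without an error of their own, and the spread between libraries is seen only through the standard error. The second table names its reference arm control. Over 13634 genes its implied control means differed from the SCLC means of the first table by a median log2 ratio of 0.11 with an SD of 0.0084 across genes, so the control was taken as the same SCLC libraries. The 2 comparisons thus share SCLC libraries, and a low SCLC value enters both. The implied total was 44.7 M normalized counts a library in Normal and 42.0 M in SCLC in the first table, and 45.3 M in SCLC and 31.9 M in GSK in the second.

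Markers of other cell types moved with the groups. The SCLC libraries carried neuroendocrine markers: 10 of 10 were higher than in Normal, with a summed mean of 159916 normalized counts in SCLC and 99.1 in Normal, computed from the authors' deposited table. GSK libraries kept a neuroendocrine sum of 76945, against 172644 in SCLC in the same table. They also carried more RNA of markers of other cell types. All 8 immune markers were higher in GSK, with a sum of 118027 against 84.4 in SCLC, and Ptprc, the pan-leukocyte gene, was at least 12600-fold higher, from the authors' deposited table. All 8 endothelial markers were higher, with a sum of 24569 against 534, as were 9 of 10 fibroblast markers, with 16142 against 36.5, per the authors' deposited table. In SCLC, Ptprc, Adgre1, Itgam, Cd3e, Cdh5, Tie1, Emcn, Lum and Postn were under a mean of 1 normalized count in both of the authors' deposited tables. Of the epithelial lists, 6 of 8 alveolar type I markers were higher and 1 lower in GSK (sum 7272 against 2557), per the authors' deposited table. Of the tested alveolar type II markers, 5 of 7 were higher (7490 against 5477). Of the tested club and basal airway markers, 3 of 5 were higher (7397 against 216), namely Scgb1a1, Scgb3a2 and Cbr2. The basal genes did not join them: Krt5 (1.91 in GSK) did not pass and Trp63 (0.11) had no adjusted p, per the authors' deposited table. Normal had sums of 525712 for the type I list, 3100431 for the type II list and 31988 for the club and basal list, against 2375, 5113 and 203 in SCLC, per the authors' deposited table. Normal had further sums of 109920 for the immune list, 464 for the endothelial list and 9687 for the fibroblast list, against 78.5, 499 and 33.8 in SCLC, per the authors' deposited table. Most of the endothelial sums was Vwf, with 318 in Normal and 443 in SCLC, followed by Pecam1 with 61.0 and 36.2, per the authors' deposited table. Lyz2 alone held 108056 of the immune sum in Normal and, in the separately scaled second table, 94202 of that in GSK. The other immune markers were lower in Normal than in GSK, such as Ptprc with 144 and 12562, per the authors' deposited tables. The immune sums of Normal and GSK thus rest mainly on Lyz2 and do not show a like amount of immune cells. In bulk RNA, fewer cells of a type and less RNA per cell cannot be told apart.

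The comparison of SCLC with Normal shows how the tumour organoids differ from lung organoids. Of the 10 members, 9 had an adjusted p, and 8 of them fell while 0 rose, at the authors' adjusted p under 0.05. Among all 24719 genes tested, 25.1% were lower, 25.3% were higher and 50.4% differed either way. The members' median log2 fold change was -4.91, against 0.10 over all genes tested, per the authors' deposited table. The coactivators, Tead3, Tead4 and the targets Ccn1, Ccn2 and Amotl2 fell by over 10-fold, and Tead1 by less than 2-fold. Of the marker lists, 8 of 8 alveolar type I, 8 of 8 alveolar type II, 5 of 5 tested club and basal, 9 of 10 fibroblast, 6 of 7 tested immune and 4 of 8 endothelial markers were lower in SCLC too, and their part in the members' change was not tested.

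**Figure D1:**
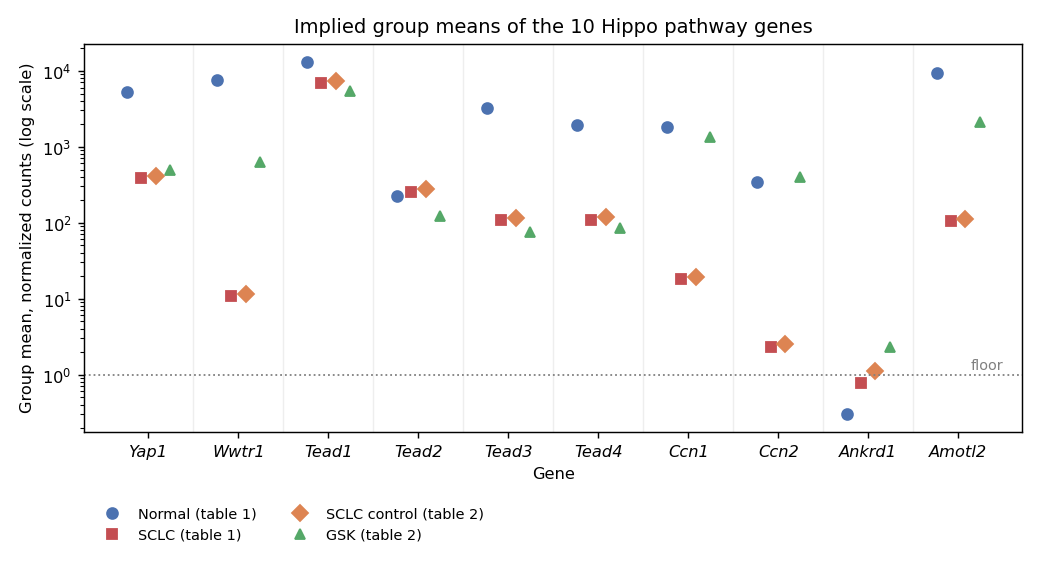
Implied group means of the 10 genes on a log axis, in normalized counts, with 1 point for each group: Normal and SCLC from the first table, SCLC control and GSK from the second. The tables were scaled separately, no point has an error of its own, and the dotted line is the floor of 1. Wwtr1, Ccn1, Ccn2 and Amotl2 are high in Normal, low in SCLC and higher again in GSK, whereas Yap1, Tead3 and Tead4 in GSK lie near the SCLC points.

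Wwtr1, which encodes TAZ, was the member with the largest fall. Its implied mean was 7585 normalized counts in Normal and 10.7 in SCLC, from the authors' deposited table. In that deposited table of the authors the log2 fold change was -9.47 ± 0.47 (SE, adjusted p = 1.75e-88), which is 708-fold lower, and its statistic ranked 83 from the lowest of 24719 genes. Yap1, which encodes YAP, had 5216 in Normal and 382 in SCLC. Yap1 fell by 3.77 ± 0.84 on the log2 scale (adjusted p = 2.88e-05), or 13.7-fold, per the authors' deposited table. Both coactivators were thus lower in SCLC, and their 95% intervals, -10.39 to -8.55 for Wwtr1 and -5.43 to -2.12 for Yap1, did not overlap.

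Yap1 was the least precise of the abundant members. Its standard error of 0.84 per the authors' deposited table was larger than that of 98.2% of the 2935 genes whose mean lay within 1.5-fold of its own, whose median was 0.27. For Wwtr1 the same share was 93.6% and for Tead1 71.0%. The standard errors of Amotl2 (95.8%), Tead4 (94.3%) and Ccn1 (90.2%) also lay in the upper part. A larger standard error at a like mean can reflect more spread between libraries of a group. It can also come from a low count in a group, as in SCLC for Wwtr1 (10.7) and Ccn1 (18.0), since similar genes were matched on the mean over both groups. These sources were not separated, and the tables do not show in which library or group any spread lay.

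The TEAD factors, through which YAP and TAZ reach DNA, fell by unequal amounts, and Tead2 did not pass. Tead1 had an implied mean of 13163 in Normal and 6897 in SCLC, and fell by 0.93 ± 0.31 on the log2 scale (adjusted p = 0.00592) per the authors' deposited table. Tead3 had 3260 and 108, with a log2 fold change of -4.91 ± 0.45 (adjusted p = 7.13e-26), or 30.2-fold lower, per the authors' deposited table. Tead4 had 1929 and 108, with -4.16 ± 0.66 (adjusted p = 1.56e-09), or 17.9-fold lower, per the authors' deposited table. Tead2 did not pass, at 224 in Normal and 254 in SCLC (0.19 ± 0.49, adjusted p = 0.779), per the authors' deposited table. The 95% interval of Tead2, -0.78 to 1.16, leaves changes of up to about that size in either direction undetected. The intervals of Tead3 and Tead4 lay below that of Tead1, -1.53 to -0.33, without overlap.

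Among the targets, Amotl2, a scaffold of the angiomotin family that binds YAP, went from 9189 in Normal to 105 in SCLC. Its log2 fold change was -6.45 ± 0.52 (adjusted p = 1.61e-33), or 87.4-fold lower, per the authors' deposited table. Ccn1 had 1805 in Normal and 18.0 in SCLC, a log2 fold change of -6.65 ± 0.55 (adjusted p = 8.09e-32), per the authors' deposited table. Ccn2 had 347 and 2.32, a log2 fold change of -7.22 ± 0.54 (adjusted p = 1.25e-38), or 149-fold lower, per the authors' deposited table. The intervals of these 3 targets overlapped one another. Ankrd1, a nuclear ankyrin repeat protein best known from muscle, was under the floor of 1 in both groups, at 0.30 and 0.78, had no adjusted p per the authors' deposited table, and gives no fold.

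The comparison of GSK with SCLC sets organoids labelled as treated against the SCLC organoids of the arm named control. The sample labels give SCLC as the tissue of both groups, and only the series' design text calls them organoids. Neither says how the material was grown or whether its source was the same, while the GSK libraries carried the immune, endothelial and fibroblast markers given above. The agent and a difference in the cells present cannot be told apart in any GSK fold change below. Of the 9 members with an adjusted p, 4 rose (Wwtr1, Ccn1, Ccn2 and Amotl2) and 0 fell, while no TEAD gene passed. Among all 28376 genes tested, 21.6% were higher, 15.5% were lower and 37.1% differed either way. The members' median log2 fold change was 1.06, against 0.24 over all genes tested, per the authors' deposited table. Of the calls over all genes, 58.2% were higher, a share that became 81.6% when scaled to total counts and 70.2% when centred on genes with a mean of at least 100. Scaling to total counts moved every GSK fold change up by 0.51 on the log2 scale, and centring moved it up by 0.25. Wwtr1, Ccn1, Ccn2 and Amotl2 were called under both, and no other member was. These rises came together with those of the immune, endothelial, fibroblast, alveolar and airway markers given above. As background, fibroblasts and endothelial cells express Wwtr1, Ccn1 and Ccn2 too. The part of those cell types in the members' rise was not tested, and no library could be left out, because the tables hold none singly.

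**Figure D2:**
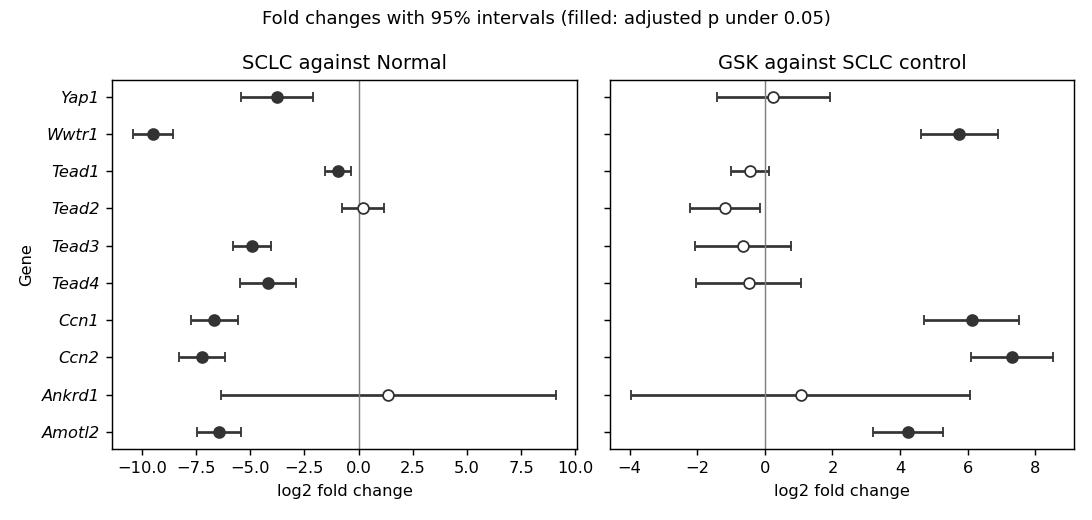
Log2 fold changes of the 10 genes with 95% intervals from the authors' standard errors, SCLC against Normal on the left and GSK against SCLC on the right. Filled points passed an adjusted p under 0.05, and open points did not or, for Ankrd1 on the left and Yap1 on the right, had no adjusted p. On the right the intervals of Wwtr1, Ccn1, Ccn2 and Amotl2 lie above 3, those of Yap1, Tead1, Tead3, Tead4 and Ankrd1 span 0, and that of Tead2 ends just below 0.

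The 2 coactivators were unlike in this comparison. Wwtr1 had an implied mean of 11.5 in SCLC and 620 in GSK, from the authors' deposited table. It rose by 5.75 ± 0.58 on the log2 scale (adjusted p = 1.31e-21), or 53.9-fold, per the authors' deposited table. Yap1 had 408 in SCLC and 487 in GSK, with a log2 fold change of 0.26 ± 0.85, per the authors' deposited table. Its p-value was left blank although a fold change was given, which in a DESeq2 table, whose column names these files have, marks a gene with an extreme count in a library. The interval of Yap1, -1.41 to 1.92, did not overlap that of Wwtr1, 4.62 to 6.88. Any such extreme count enters the fold change and the interval of Yap1, so this difference carries that limit. With a p taken from the deposited statistic, an alternative chosen after the data were seen, Yap1 did not pass either.

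The targets Ccn1 and Ccn2, whose products are secreted matrix-associated proteins, had the highest fold changes among the members. Ccn2 had 2.49 in SCLC and 397 in GSK, a log2 fold change of 7.32 ± 0.62 (adjusted p = 7.25e-30), or 159-fold, per the authors' deposited table. Its statistic ranked 162 from the highest of 28376 genes. Ccn1 had 19.3 and 1340, a log2 fold change of 6.12 ± 0.72 (adjusted p = 4.84e-16), or 69.6-fold, per the authors' deposited table. Amotl2 had 112 and 2120, with 4.24 ± 0.53 (adjusted p = 3.67e-14), or 18.9-fold, per the authors' deposited table. The interval of Ccn2, 6.10 to 8.53, lay above that of Amotl2, 3.20 to 5.28. Ankrd1 had 1.11 in SCLC and 2.31 in GSK and did not pass (1.06 ± 2.56, adjusted p = 0.790) per the authors' deposited table. At these counts, with an interval of -3.96 to 6.08, a change in Ankrd1 was not detectable.

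No TEAD gene passed in GSK against SCLC. Tead1 had 7419 in SCLC and 5458 in GSK (-0.44 ± 0.28, adjusted p = 0.224), per the authors' deposited table. Tead2 had 276 and 123 (-1.17 ± 0.53, adjusted p = 0.0681), Tead3 had 116 and 74.1 (-0.64 ± 0.72, adjusted p = 0.525) and Tead4 had 118 and 85.2 (-0.47 ± 0.79, adjusted p = 0.688), per the authors' deposited table. All 4 values were negative as deposited, and those of Tead1 (0.06) and Tead4 (0.03) turned positive when scaled to total counts. The upper ends of the 95% intervals were 0.11 for Tead1, -0.13 for Tead2, 0.77 for Tead3 and 1.08 for Tead4, each below the lower ends of the intervals of Wwtr1, Ccn1, Ccn2 and Amotl2.

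**Figure D3:**
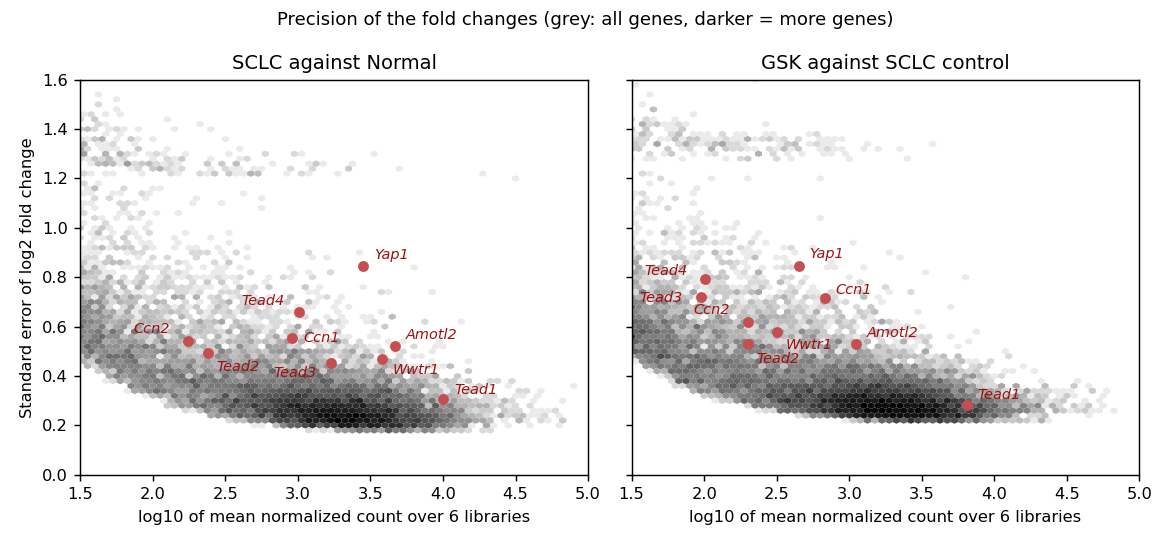
Standard error of the log2 fold change against the log10 mean normalized count, for all genes (grey, darker for more genes) and the members (red), in each comparison. Ankrd1 lies outside the range shown. Yap1 lies above most genes of its abundance in both panels, with 98.2% of similar genes below it on the left and 92.9% on the right, while Tead1 lies within the main body.

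The GSK levels were also set against the Normal levels. For this the GSK means were brought to the scale of the first table through the shared SCLC means, and no test was made, since the groups come from different tables. Ccn2 in GSK was 106% of its Normal mean and Ccn1 68.8%, against 0.67% and 0.995% in SCLC. Amotl2 was 21.4% of Normal in GSK and 1.14% in SCLC. Wwtr1 was 7.58% of Normal in GSK and 0.141% in SCLC. Yap1 (8.67% in GSK, 7.31% in SCLC), Tead3 (2.11%, 3.32%) and Tead4 (4.10%, 5.60%) were low against Normal in both groups. Tead1 was 38.5% in GSK and 52.4% in SCLC, and Tead2 51.0% and 114%. All these percentages depend on the authors' scaling. The log2 ratio of implied totals was -0.51 for GSK against SCLC and -0.09 for SCLC against Normal. Scaling to total counts would therefore raise every percentage, those of GSK most. The fibroblast and endothelial sums given above also differed between GSK and Normal, and their part in these percentages was not tested.

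The make-up of each family, which does not depend on scaling between libraries, was computed per kilobase of exon (GENCODE M21 exon lengths). TAZ was the more abundant coactivator transcript in Normal, at 1587 normalized counts per kb for Wwtr1 and 564 for Yap1, so Wwtr1 made up 73.8% of the pair. In SCLC the order was turned: 2.24 per kb for Wwtr1 and 41.2 for Yap1, a Wwtr1 share of 5.16%. In GSK the Wwtr1 share was 71.1%, at 130 per kb against 52.7 for Yap1. With its large standard error and the blank p-value given above, the Yap1 level may rest on few libraries. The coactivator shares and their order in SCLC and GSK carry the same limit. The summed coactivator level per kb was 2151 in Normal, 43.5 in SCLC and 182 in GSK, the last in the separately scaled second table.

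Within the TEAD family, Tead1 was first in every group, at 970 per kb in Normal, 508 in SCLC and 402 in GSK. Tead4 (536) and Tead3 (486) followed in Normal, and Tead2 (46.7) was last. The Tead1 share of the family was 47.6% in Normal, 83.7% in SCLC and 86.9% in GSK. Tead3 and Tead4 held small shares outside Normal: Tead3 held 23.8% in Normal, 2.65% in SCLC and 2.39% in GSK, and Tead4 held 26.3%, 4.94% and 5.12%. Tead2 was last in Normal and second in SCLC (53.1 per kb), ahead of Tead4 (30.0) and Tead3 (16.1). Of the angiomotins, Amotl2 made up 81.2% in Normal, 13.1% in SCLC and 70.6% in GSK. Its relatives Amot (adjusted p = 0.425 and 0.587 from the authors' deposited tables) and Amotl1 (2.2e-06, lower in SCLC, and 0.924) did not pass in GSK against SCLC. These levels and shares carry no error, so neighbours in the order such as Tead4 and Tead3 in Normal cannot be set apart from their spread.

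**Figure D4:**
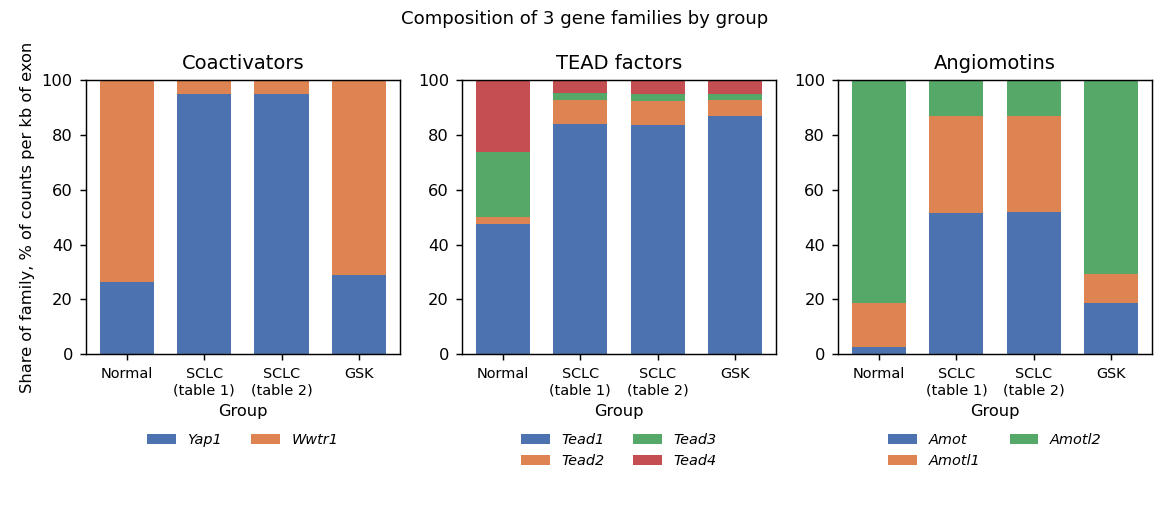
Share of each gene within its family, in percent of normalized counts per kilobase of exon, for coactivators, TEAD factors and angiomotins in Normal, SCLC (from each table) and GSK. The 2 SCLC bars nearly coincide, and the coactivator bars depend on the Yap1 level, whose standard error was large. Wwtr1 and Amotl2 hold over 70% of their families in Normal and GSK and under 15% in SCLC, while the TEAD bars of GSK resemble those of SCLC.

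Upstream of the coactivators, 25 regulators were examined: the kinases, their adaptors and the junction and polarity proteins that feed into them. The list mixes genes that promote the cascade with genes that restrain it, such as Ajuba. Its counts and medians therefore give no direction of pathway activity. In SCLC against Normal, 15 of the 25 fell, 5 rose and 5 did not pass, beside 25.1% lower and 25.3% higher over all genes tested. Their median log2 fold change was -0.88, against 0.10 over all genes tested, per the authors' deposited table. Of the core kinase genes, Lats2 had the largest change. Stk4 (MST1) rose by 0.62 ± 0.18 (adjusted p = 0.00202) and Stk3 (MST2) fell by 0.91 ± 0.40 (adjusted p = 0.0450) on the log2 scale, per the authors' deposited table. The call of Stk3 ended when scaled to total counts and without the filter on low means. Lats1 did not pass (-0.17 ± 0.42, adjusted p = 0.767), whereas Lats2, itself a known target of YAP and TAZ, fell by 5.70 ± 0.55 (adjusted p = 1.36e-23), per the authors' deposited table. The kinase adaptors Sav1 (-0.60 ± 0.23), Mob1a (-0.88 ± 0.25) and Mob1b (-2.02 ± 0.30) fell, per the authors' deposited table, and the call of Sav1 ended when scaled to total counts. Stk3, Stk4, Sav1, Lats1, Mob1a, Mob1b, Nf2, Amot, Amotl1 and F3 were picked for naming after their values were seen.

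The other 4 regulators that rose were Fat4 and Dchs1, the large cadherins that bind each other across cells, Map4k4, a kinase that acts beside Stk3 and Stk4, and Nf2, which encodes merlin. Fat4 had 30.8 in Normal and 1591 in SCLC (5.69 ± 0.80, adjusted p = 6.68e-12) and Dchs1 had 103 and 1982 (4.27 ± 0.53), per the authors' deposited table. Map4k4 had 1.55 ± 0.19 and Nf2 0.76 ± 0.19 per the authors' deposited table. Ptpn14, a phosphatase that binds YAP, had the largest fall of the list, from 6697 to 33.0 (-7.67 ± 0.63), and Ajuba, a LIM protein that restrains LATS kinases, had -5.42 ± 1.24, per the authors' deposited table.

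In GSK against SCLC, 5 of the 25 regulators rose, 3 fell and 17 did not pass, which is near the 21.6% higher and 15.5% lower over all genes tested. Their median was 0.14, against 0.24 over all genes tested, per the authors' deposited table. Of those that rose, Lats2 went from 14.9 to 464 (4.96 ± 0.66, adjusted p = 1.23e-12) and Ptpn14 from 35.9 to 346 (3.27 ± 0.69, adjusted p = 1.6e-05), per the authors' deposited table. Both are also in the list of YAP and TAZ targets. Taok3 (1.44 ± 0.36), Wwc2 (1.21 ± 0.40) and Rassf1 (0.74 ± 0.29) rose, and Fat4 (-2.67 ± 0.71), Wtip (-1.84 ± 0.39) and Wwc1 (-0.78 ± 0.31) fell, per the authors' deposited table. The call of Wwc1 ended under both other scalings. The core kinase genes Stk3 (0.50 ± 0.42), Stk4 (-0.08 ± 0.24) and Lats1 (0.40 ± 0.44), with Nf2 (-0.36 ± 0.24), did not pass per the authors' deposited table. When scaled to total counts, Stk3 (adjusted p = 0.0444) and Sav1 (adjusted p = 0.0118) passed, and Stk4 (0.43) and Nf2 (0.14) turned positive without passing. Under a test for absolute log2 fold changes above 1, Lats2 and Ptpn14 were the 2 of the 25 that passed.

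A list of 18 further genes known as YAP and TAZ targets in human cancers was read next to the 4 target members. In SCLC against Normal, 14 of the 18 fell, 2 rose and 2 did not pass, beside 25.1% lower and 25.3% higher over all genes tested. Their median log2 fold change was -4.07, against 0.10 over all genes tested, per the authors' deposited table. Myof, a membrane repair protein, went from 13412 in Normal to 25.8 in SCLC (-9.02 ± 0.58), and the RNA-binding gene Rbms3 had -7.37 ± 0.42, per the authors' deposited table. Axl, a receptor tyrosine kinase, had 974 and 6.72 (-7.18 ± 0.61), per the authors' deposited table. The 2 that rose were Asap1, a GTPase-activating protein (3.02 ± 0.25), and Crim1, a transmembrane protein that binds BMPs (2.20 ± 0.29), per the authors' deposited table.

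In GSK against SCLC, 9 of the 18 rose, 2 fell and 7 did not pass, beside 21.6% higher and 15.5% lower over all genes tested. Their median was 1.79, against 0.24 over all genes tested, per the authors' deposited table. Axl had the largest rise, from 7.23 to 3603 (8.96 ± 0.55, adjusted p = 1.57e-56), per the authors' deposited table. Ccdc80, a matrix protein, followed with 1.77 and 462 (8.03 ± 0.66), Myof with 27.8 and 3086 (6.79 ± 0.68) and Rbms3 with 6.12 ± 0.46, per the authors' deposited table. Crim1 (-1.60 ± 0.35) and Fjx1 (-2.89 ± 0.71), which encodes a secreted protein related to a Fat cadherin kinase, fell per the authors' deposited table. F3, the tissue factor gene, lay at the threshold (1.52 ± 0.65, adjusted p = 0.050009, just above 0.05) per the authors' deposited table. It passed under both other scalings and when only genes with a mean of at least 10 were adjusted. Fibroblasts also express some of these genes, such as Ccdc80 and Axl, and the fibroblast markers given above rose in the same comparison. Their part in these values was not tested.

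**Figure D5:**
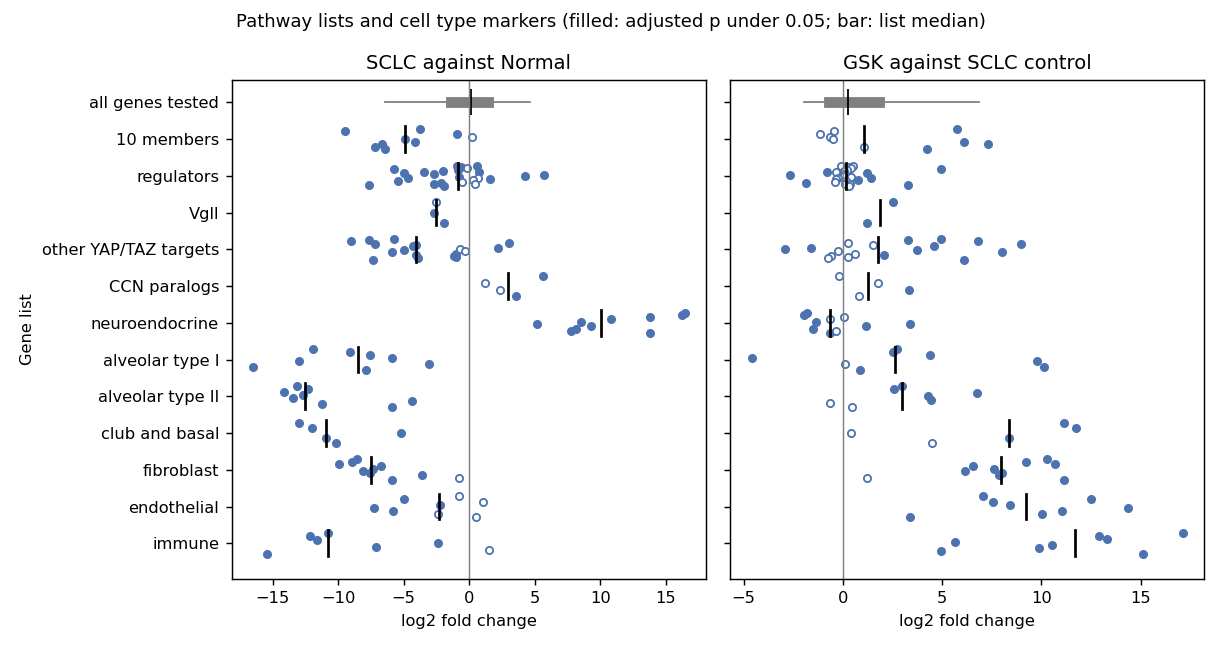
Log2 fold changes of the tested genes of each pathway list and each marker list, in SCLC against Normal (left) and GSK against SCLC (right). Filled points passed an adjusted p under 0.05, black bars are list medians, and the top line shows all genes tested (thick, quartiles; thin, 5th to 95th percentile). On the right the members fall into 2 groups, 4 above 4 and 5 between -1.17 and 1.06, and the fibroblast, endothelial and immune medians lie at 7.95, 9.23 and 11.71.

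The VGLL proteins compete with YAP and TAZ for TEAD factors. Vgll4, which represses TEAD activity, fell in SCLC (2671 in Normal and 712 in SCLC, -1.91 ± 0.25) and rose in GSK (766 and 1772, 1.21 ± 0.27, adjusted p = 4.43e-05), per the authors' deposited tables. Vgll3 fell in SCLC (-2.71 ± 0.62) and rose in GSK (2.52 ± 0.62, adjusted p = 0.000296), per the authors' deposited tables. Vgll1 was listed at 0 in both tables, and Vgll2 was at or under a mean of 3 in Normal and under 1 in SCLC and GSK.

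The paralogs of Ccn1 and Ccn2, secreted proteins of the same family, were read beside them. Ccn3 rose in SCLC, from 113 in Normal to 5670 (5.65 ± 1.31, adjusted p = 5.88e-05), and Ccn6 rose from 2.95 to 34.4 (3.54 ± 0.98), per the authors' deposited table. Ccn4 (1.20, with an interval of -1.74 to 4.15) and Ccn5 (2.34 ± 1.30) did not pass per the authors' deposited table. In GSK, Ccn5 rose from 20.4 to 206 (3.34 ± 0.93, adjusted p = 0.00151), and Ccn3 (-0.17 ± 0.54, positive under both other scalings), Ccn4 (1.75 ± 1.22) and Ccn6 (0.81 ± 0.45) did not pass, per the authors' deposited table. Ccn6 passed when scaled to total counts (1.32).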

How the data were processed

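Stranded mRNA libraries of 9 samples were sequenced as paired reads, per the labels' protocols. The submitters' processing notes name STAR 2.7.9a and the build GRCm39. For the counting tool and the annotation, the sources used here name nothing. The authors deposited tables whose columns, per the file headers, carry the names DESeq2 gives. The authors deposited, for each gene, the signal (mean normalized count over 6 libraries), the log2 fold change and its standard error, a score (the statistic) and p-values, unadjusted and adjusted. The score equalled the fold change over its standard error to within 8.87e-08. Depth per library was not analysed here.

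Computed here with Python 3.11.15, pandas 2.3.3 and SciPy 1.17.1 were implied group means, 95% intervals (normal, from the standard error), counts per kilobase of the union of exons, list counts and motif matches. The test was the authors' adjusted p under 0.05. Adjusted p-values were given for 24719 and 28376 genes. Lower bounds of folds took a group at or under a mean of 1 (3 normalized counts over its 3 libraries) as that floor, which covers counting error only. Lats2 had 2 rows, and the one at 0 was dropped. The adjustment code was tested on simulated data.

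The members and the lists were chosen with earlier results of these data known. Exon lengths were those of GENCODE M21 (GRCm38), and RefSeq windows were matched by the Entrez gene identifier of each member's row. Named were all members, Vgll genes and CCN paralogs, the 4 largest called changes of each other list, all called genes in a direction with 5 or fewer, and the 2 largest changes of each marker list. Alternatives were other thresholds, scalings and filters.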

Additional observations from a re-analysis of the deposited data

How the results depend on the processing

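The counts of members called, 8 lower in SCLC and 4 higher in GSK, were recomputed under 7 alternatives. The count in SCLC was 7 when absolute log2 fold changes above 1 were tested, where Tead1 no longer passed, and 8 under the other 6. The count in GSK was 4 under all 7. The regulators called in GSK numbered 8, and 2 under the test for changes above 1. The other counts of regulators and targets stayed within 1.5-fold. Over all genes, that test cut calls from 12453 to 6340 in SCLC and from 10533 to 3724 in GSK.

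Of 745 values of named genes under alternatives, 701 kept direction and call. Directions changed for these uncalled GSK values: when scaled to total counts, Tead1 (0.06), Tead4 (0.03), Vgll2 (0.01), Ccn3 (0.34), Stk4 (0.43) and Nf2 (0.14), and when centred on abundant genes, Ccn3 (0.08) and Stk4 (0.16). Scaling shifts every gene alike, which is what turned them.

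No paired analysis was possible because the tables hold no value of a single library. For the same reason, leaving out replicates, an edgeR fit and a DESeq2 fit were not run. Low counts limit Ankrd1 and Vgll2. The p taken from the statistic was an alternative chosen after seeing the data.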
